A study of Mus musculus with 6 samples.

Results

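The cytochrome P450 genes of families Cyp1, Cyp2 and Cyp3 were examined in mouse liver lacking SIRT1. Members were all probes other than control spots whose gene name in the scanner files was Cyp, a family number 1, 2 or 3, a subfamily letter and a number. The rule found 66 probes of 43 genes, out of 41174 probes and 27962 gene names on the array. They fell into the subfamilies Cyp1a, Cyp1b, Cyp2a, Cyp2b, Cyp2c, Cyp2d, Cyp2e, Cyp2f, Cyp2g, Cyp2j, Cyp2r, Cyp2s, Cyp2u and Cyp3a. Of the 43 genes, 22 had 1 probe, 19 had 2 probes and 2 had 3 probes. Genes with Cyp symbols that the rule did not take were Cyp2ab1, Cyp2d12 and Cyp2d34, which carry other names in the files.

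SIRT1 is an NAD-dependent protein deacetylase. The animals were liver-specific SIRT1 knockouts (SIRT1 LKO) and Lox controls, both on a background that was 95% C57BL/6. All were male, 10 weeks old, on chow given ad libitum, and were killed at 4 pm. Each group had 6 animals, whose liver RNA was combined into 3 pools of 2 animals, and each pool was hybridised to its own 1-colour array. The sources used here name neither the driver of the Cre recombinase nor the part of Sirt1 that was deleted.

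Cytochromes P450 of these families are haem enzymes of the endoplasmic reticulum that oxidise drugs, pollutants, steroids, bile acids and fatty acids, taking electrons from the reductase Por. Their genes answer to receptors that bind foreign compounds: the aryl hydrocarbon receptor Ahr acts on Cyp1 genes, the receptor CAR (Nr1i3) on Cyp2b10, and the receptor PXR (Nr1i2) on Cyp3a genes. In mice the Cyp2 and Cyp3a genes have multiplied into tandem arrays of close copies, and several of the copies differ between the sexes under the control of growth hormone.

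The 66 probes lie on 8 chromosomes in the coordinates of the files (build mm7). Chromosome 7 holds 20 probes of 12 genes, among them every Cyp2a and Cyp2b probe, and chromosome 19 holds 14 probes of 11 genes, which are the Cyp2c probes. Chromosomes 15 and 4 hold 9 probes of 5 genes each, the Cyp2d and the Cyp2j genes. The Cyp3a genes, 8 probes of 6 genes, are on chromosome 5. Each probe is a DNA oligonucleotide of 60 bases, and 11 of the probes are placed in the files across a gap that makes their span longer than the probe. Exon and UTR positions are not given here.

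Because near-identical copies can bind the same labelled RNA, the sequences of the probes bear on what each value stands for. The probes with the widest differences between genotypes are those of Cyp2b10, Cyp2b13 and Cyp2b9. The longest run of bases that any of the 4 probes printed here shares with a probe of another Cyp2b gene is 7 or 8 bases, so none of their letters is in capitals. Probes were compared only with other probes and not with the RNA of related genes. Whether each of these probes reads only the gene it is named for was therefore not tested.
Cyp2b10, A_51_P182362, chr7:22691430-22700100, plus strand: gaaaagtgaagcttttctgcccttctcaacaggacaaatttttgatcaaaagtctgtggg
Cyp2b10, A_52_P472486, chr7:22691069-22691128, plus strand: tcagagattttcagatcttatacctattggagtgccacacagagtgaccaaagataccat
Cyp2b13, A_51_P492339, chr7:22986378-22992433, plus strand: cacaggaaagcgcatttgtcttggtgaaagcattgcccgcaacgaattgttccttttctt
Cyp2b9, A_52_P256914, chr7:23095303-23095362, plus strand: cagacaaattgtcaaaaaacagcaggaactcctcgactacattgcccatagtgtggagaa

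Probes of the Cyp2c cluster are more alike, and 3 of them are shown with the bases they have in common. At the best alignment without gaps, the Cyp2c54 probe equals the Cyp2c38 probe at 40 of 57 bases and the Cyp2c40 probe at 38 of 46 bases. Capitals mark the bases equal to the Cyp2c40 probe in the Cyp2c54 line, and the bases equal to the Cyp2c54 probe in the other lines.
Cyp2c54, A_52_P154580, chr19:39941403-39963984, minus strand: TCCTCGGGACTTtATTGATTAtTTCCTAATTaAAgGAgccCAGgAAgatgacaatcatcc
Cyp2c40, A_52_P200121, chr19:39680672-39696310, minus strand: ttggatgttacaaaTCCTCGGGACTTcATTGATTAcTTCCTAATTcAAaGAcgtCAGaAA
Cyp2c38, A_51_P342206, chr19:39298557-39329867, minus strand: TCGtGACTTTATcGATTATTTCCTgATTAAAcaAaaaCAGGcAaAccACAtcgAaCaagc

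The pair of Cyp2d9 probes is shown because both read the same part of the gene. Capitals mark the 27 bases that the probes share.
Cyp2d9, A_51_P478303, chr15:82540764-82540823, plus strand: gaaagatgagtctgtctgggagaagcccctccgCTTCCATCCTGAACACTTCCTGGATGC
Cyp2d9, A_51_P124133, chr15:82540797-82540856, plus strand: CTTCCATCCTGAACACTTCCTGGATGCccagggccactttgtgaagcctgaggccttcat

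Before the results, 3 facts of the arrays bear on them. The SIRT1 LKO pools 1 and 2 lay on slide 2, LKO pool 3 on slide 3 and the 3 control pools on slide 1. No slide held both genotypes, so slide and genotype cannot be told apart in any comparison here. The 75th percentile of intensity was 1289 on the array of LKO pool 3 and between 1005 and 1056 on the other 5 arrays. For LKO pool 3 the authors also deposited a value table that departed from the scanner file, with 0.853% of probes within 1% of each other, whereas 99.8% of probes were in each of the other 5 samples. Results are therefore given from the scanner files, and where it matters also from the value table or from the 5 remaining arrays. The brighter of the Sirt1 probes read -0.07, 0.09 and 0.16 in the LKO pools, against 0.29, 0.37 and 0.24 in the control pools (adjusted p = 0.242). The other Sirt1 probe overlapped between the groups. Neither is known to lie in the deleted part, so these values do not check the labels. All 8 hepatocyte markers examined (Alb and Ttr among them) were well above background on all arrays.

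Values below are log2 intensities after subtraction of the 75th percentile of the array, so that 0 is the brightness of the probe at that percentile and each unit is a doubling. They are not comparable between probes. A difference is the mean of the LKO pools minus the mean of the control pools, with its standard error (SE) from limma and a p-value adjusted by the Benjamini-Hochberg method over all 23588 tested probes. A probe was tested if in either group all 3 arrays read it well above background, and the threshold was an adjusted p of 0.05. The pools are the replicates. In whole liver, fewer cells of a type and less RNA per cell cannot be told apart.

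No P450 probe of these families passed the test. Of 56 tested probes, covering 41 of the 43 genes, limma called 0, against a background of 0.0636% of all tested probes. At an unadjusted p under 0.05 there were 10 member probes, 3 higher and 7 lower in LKO livers, where 21.3% of all tested probes reached it (10.7% higher and 10.5% lower). The lowest adjusted p among members was 0.103, for a Cyp2b10 probe. From the value table, no members passed (0 of 56, background 1.31%), and 9 had an unadjusted p under 0.05 (background 26.3%). Without LKO pool 3 again 0 passed (background 2.96%), and 13 had an unadjusted p under 0.05 (background 30.6%). At these backgrounds, 56 probes are too few for 0 calls to set the members apart from the array. For an unadjusted p under 0.05 in either direction, the members' share was below the background in each of these 3 settings. By direction, with all 6 arrays of the scanner files, the 3 of 56 higher were below the background of 10.7%. The 7 of 56 lower were only slightly above the background of 10.5%, and both probes of Cyp2b10 are among them. This does not set the members apart from the array.

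Most differences were small. In LKO livers 20 of the 56 probes were higher and 36 lower, and 49 of 56 differences lay within 0.5 of zero on the log2 scale. The median difference was -0.07 over the members and 0.02 over all tested probes. In the value table these medians were -0.04 and 0.04. The LKO and control pools did not overlap in 15 member probes, 3 with all LKO pools above and 12 with all below. Over the array, 28.8% of tested probes did not overlap, 14.9% with all LKO pools above and 13.9% with all below. From the value table, 12 of the 56 probes did not overlap, where 34.1% of all tested probes did not. The median half-width of the 95% interval of a member's difference was 0.37, so smaller differences were within the error for many members. The LKO arrays were also less alike than the control arrays. The median SD of a member probe was 0.25 in LKO pools and 0.12 in control pools, against 0.17 and 0.13 over all tested probes (n = 3 each). The control arrays shared slide 1, whereas LKO pool 3 lay on slide 3, apart from LKO pools 1 and 2. Spread between pools and between slides therefore cannot be told apart in the LKO group.

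**Figure D1:**
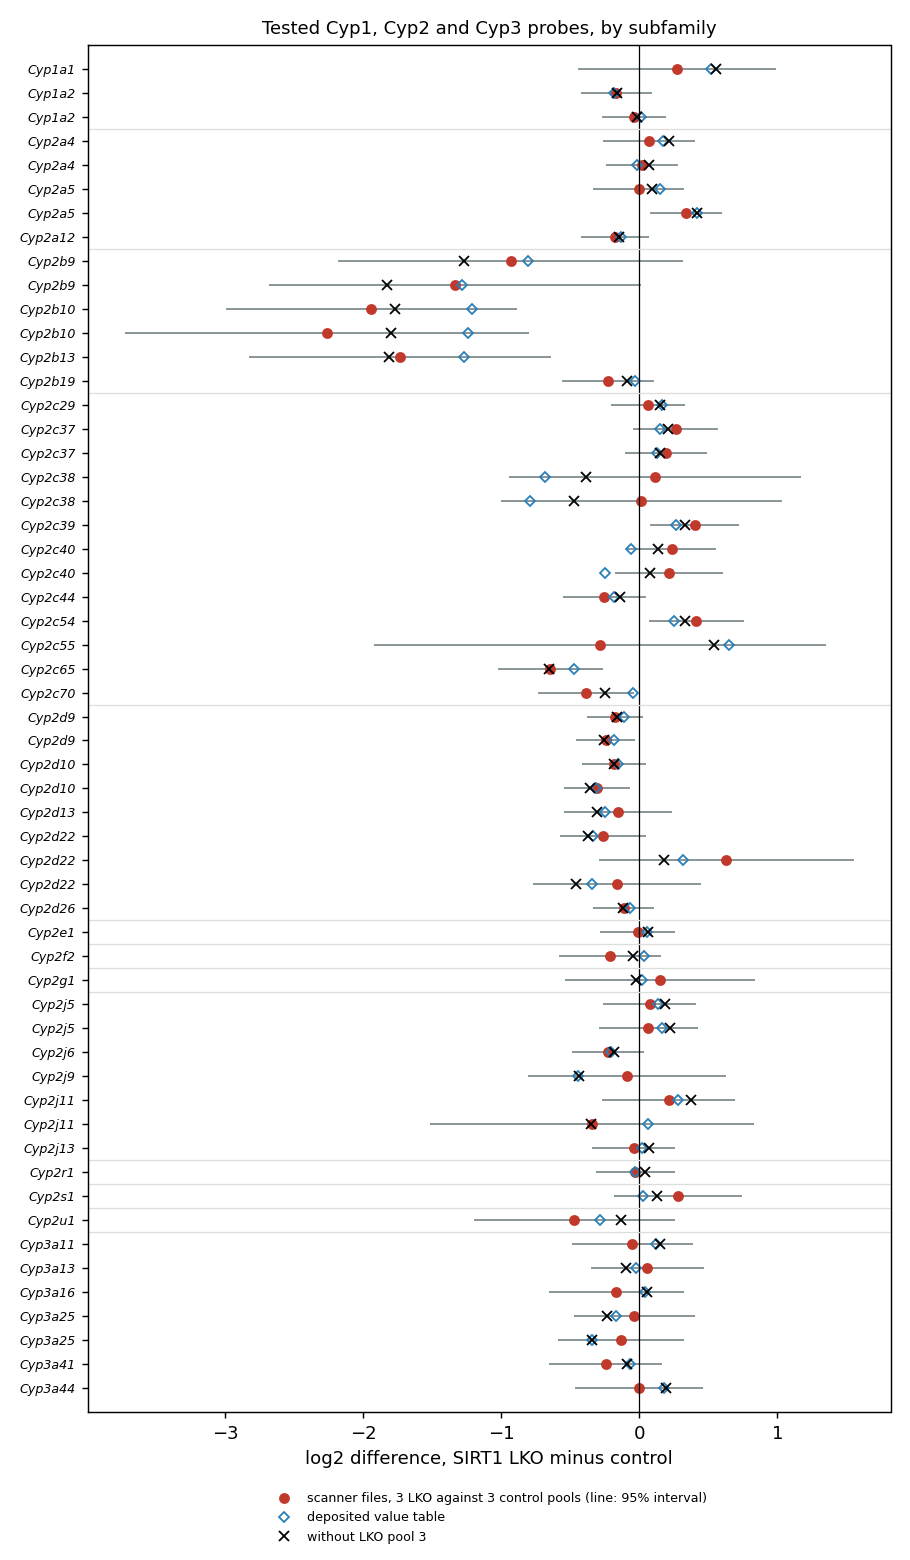
Log2 difference (SIRT1 LKO minus control, horizontal axis) of each of the 56 tested Cyp1, Cyp2 and Cyp3 probes, with 1 row per probe and subfamilies separated by grey lines. Red circles are the scanner files with 95% intervals from limma, blue diamonds the value table and black crosses the values without LKO pool 3. The Cyp2b rows reach furthest to the left, and most other rows lie within 0.5 of zero.

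The Cyp2b enzymes showed the widest differences. All 6 tested Cyp2b probes were lower in LKO livers, with differences between -2.27 and -0.22 on the log2 scale and a median of -1.53. Of the 6, 4 had every LKO pool below every control pool, against 13.9% of all tested probes. Both Cyp2b10 probes are among the 4, and as probes of 1 gene they do not stand for independent measurements. Cyp2b19 is also among them, with its highest LKO pool at -3.819 and its lowest control pool at -3.816. None of the 6 passed the test. Cyp2b10 is the standard target of CAR in mouse liver, and Cyp2b9 and Cyp2b13 are its neighbours on chromosome 7, both known as female-biased liver genes in mice. The remaining 50 tested members, without Cyp2b, had a median difference of -0.04, with 20 probes higher and 30 lower.

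For Cyp2b10, probe A_51_P182362 read -1.57, -2.51 and -2.56 in the LKO pools, against -1.14, -0.05 and 0.37 in the control pools. Every LKO pool was below every control pool, and LKO pool 1 came closest to control pool 1. The means were -2.21 ± 0.56 in LKO pools and -0.27 ± 0.78 in control pools (SD, n = 3 each), a difference of -1.94 ± 0.44 (SE), and the level in LKO livers was 0.26 of that in controls (adjusted p = 0.103). The second Cyp2b10 probe, A_52_P472486, read -0.85, -2.02 and -2.84 in LKO pools and -0.62, 0.60 and 1.11 in control pools. It had the same lack of overlap and the same closest pools. Its difference was -2.27 ± 0.61 (SE), with an adjusted p of 0.126.

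The result for Cyp2b10 depended on the source of LKO pool 3. In the value table that pool read -0.37 for the first probe and 0.22 for the second, close to the controls. The groups then overlapped, and the differences were -1.21 (adjusted p = 0.259) and -1.24 (adjusted p = 0.278). Without the pool they were -1.77 (adjusted p = 0.0959) and -1.80 (adjusted p = 0.122).

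Cyp2b13 and Cyp2b9 had the same direction. For Cyp2b13, probe A_51_P492339 read -0.31, -1.45 and -0.64 in LKO pools and 0.03, 1.20 and 1.56 in control pools. All LKO pools were below all control pools, with LKO pool 1 and control pool 1 again the nearest. The difference was -1.73 ± 0.46 (SE, adjusted p = 0.124), and it was -1.27 (adjusted p = 0.25) with the value table, which put LKO pool 3 at 0.74 and made the groups overlap. Cyp2b9 probe A_52_P256914 read -3.07, -4.40 and -2.26 in LKO pools and -2.58, -1.56 and -1.58 in control pools. Here LKO pool 3 was above control pool 1, and the difference of -1.34 ± 0.56 had an adjusted p of 0.237. Without LKO pool 3 it was -1.83 (adjusted p = 0.0872).

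The other Cyp2b9 probe, A_51_P467076, read 0.86, -0.37 and 1.27 in LKO pools and 0.67, 1.77 and 2.12 in control pools, a difference of -0.93 ± 0.52 (adjusted p = 0.346). The groups overlapped through control pool 1. In all 5 of these Cyp2b9, Cyp2b10 and Cyp2b13 probes control pool 1 was the lowest control. Cyp2b19, which is best known from skin, read -3.822, -3.819 and -4.23 in LKO pools and -3.65, -3.73 and -3.816 in control pools. The difference was -0.22 (adjusted p = 0.391), or -0.03 from the value table.

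Across sources the Cyp2b probes kept their sign. All 6 were lower in LKO livers from the value table, with a median of -1.23. There 0 of 6 had groups that did not overlap, against 34.1% of all tested probes. Without LKO pool 3, 6 of 6 were lower, with a median of -1.78. With the slide as a random block the adjusted p of the 2 Cyp2b10 probes was 0.397 and 0.409. The remaining 2 Cyp2b probes were not tested: the second Cyp2b13 probe was well above background on 2 LKO arrays and 0 control arrays, and the second Cyp2b19 probe on 0 of 6 arrays.

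**Figure D2:**
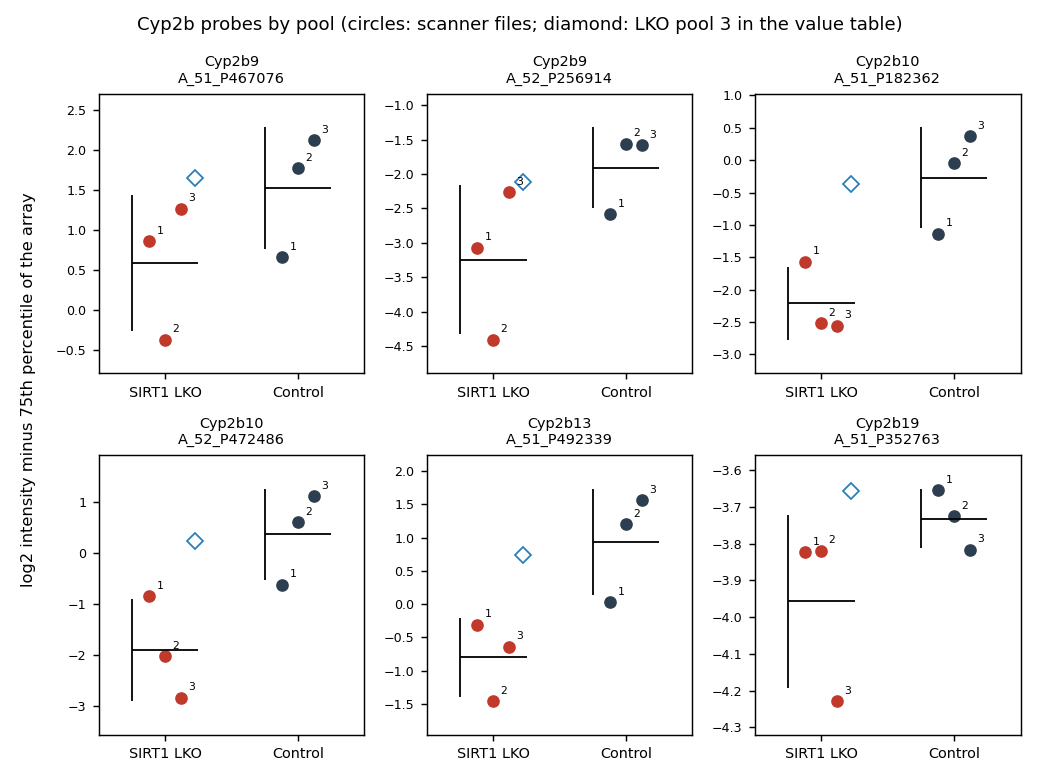
Level of each tested Cyp2b probe in each pool (log2 intensity minus the 75th percentile of the array, vertical axis, own scale in each panel), SIRT1 LKO at left and control at right. Numbered circles are pools in the scanner files, horizontal lines are means, vertical lines show 1 SD on either side, and diamonds show LKO pool 3 in the value table. For Cyp2b10 and Cyp2b13 the 3 LKO circles are below the 3 control circles, and the diamond is not.

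The Cyp2c enzymes, which oxidise drugs and also arachidonic and linoleic acid, went both ways. Of 13 tested probes, 9 were higher and 4 lower in LKO livers, with a median of 0.11. The value table gave 6 higher and 7 lower, with a median of -0.05. None passed the test. The higher probes with the lowest p were those of Cyp2c54 and Cyp2c39, and the lower ones those of Cyp2c65 and Cyp2c70.

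For Cyp2c54 the LKO pools read 4.74, 4.55 and 4.89, against 4.16, 4.25 and 4.53 in the control pools. The lowest LKO pool was just above the highest control pool. The difference was 0.41 ± 0.14 (SE, adjusted p = 0.179). Cyp2c39, known in mice as a retinoic acid hydroxylase, read 4.83, 4.82 and 5.05 in LKO pools and 4.38, 4.40 and 4.73 in control pools, again without overlap. Its difference was 0.40 ± 0.13 (adjusted p = 0.169). Both genes overlapped between the groups in the value table, with differences of 0.25 for Cyp2c54 and 0.26 for Cyp2c39.

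Cyp2c37, a gene inducible through CAR in mice, had 2 probes with like values. Probe A_51_P498882 read 6.31, 6.10 and 6.38 in LKO pools and 5.89, 5.93 and 6.19 in control pools (difference 0.26, adjusted p = 0.288). Probe A_52_P625249 read 6.55, 6.26 and 6.53 in LKO pools and 6.17, 6.19 and 6.39 in control pools (difference 0.19, adjusted p = 0.402). In both, LKO pool 2 lay among the controls, and the value table gave differences of 0.15 and 0.12.

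Cyp2c40, a female-biased gene in mouse liver, turned direction with the source of LKO pool 3. Probe A_51_P502599 read 7.05, 6.77 and 7.22 in LKO pools and 6.81, 6.81 and 6.72 in control pools, a difference of 0.23 (adjusted p = 0.355). Probe A_52_P200121 read 5.08, 4.77 and 5.35 in LKO pools and 4.99, 4.81 and 4.75 in control pools, a difference of 0.22 (adjusted p = 0.477). LKO pool 3 was the highest pool of both in the scanner file and the lowest of both in the value table, at 6.33 and 3.94, where the differences were -0.06 and -0.25.

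Cyp2c38, whose probe matches that of Cyp2c54 at most aligned bases, did likewise. Its LKO pools read -1.70, -2.42 and -0.56, against -1.92, -1.55 and -1.54 in the control pools (difference 0.11, adjusted p = 0.906). In the value table LKO pool 3 was at -2.96, below every control, and the difference was -0.69 (adjusted p = 0.223). The second Cyp2c38 probe moved in the same way, with a difference of 0.01 from the scanner files and -0.80 from the value table.

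Among the lower Cyp2c probes, Cyp2c65, an enzyme of the gut in mice, read -4.98, -5.19 and -5.05 in LKO pools and -4.40, -4.73 and -4.16 in control pools. The groups did not overlap, and the difference was -0.64 ± 0.16 (SE, adjusted p = 0.115), but the probe was dim and well above background on 5 of 6 arrays. With normexp background correction its difference was 0.08, the opposite direction. Of 4 intestine markers 3 were tested, 1 higher and 2 lower. The log2 of their mean intensity lay between 2.95 and 3.17 in LKO pools and between 3.39 and 3.64 in control pools. That level was carried by Fabp2, the intestinal fatty acid binding protein, which averaged 4.64 in LKO pools, against -4.76 for Vil1 and -1.99 for Alpi. Fabp2 differed by -0.41 (adjusted p = 0.132), Vil1 by 0.17 (adjusted p = 0.855) and Alpi by -0.05 (adjusted p = 0.901). Lct was not tested. The part of these markers in the Cyp2c65 value was not tested. Cyp2c70, which makes the muricholic acids of mouse bile, read 6.60, 6.86 and 6.33 in LKO pools and 7.01, 6.99 and 6.96 in control pools. The difference was -0.38 ± 0.15 (adjusted p = 0.205). In the value table, where LKO pool 3 was at 7.35 and above every control, it was -0.05 (adjusted p = 0.898).

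Cyp2c44, an epoxygenase of arachidonic acid now named Cyp2c23, read 6.29, 6.34 and 5.97 in LKO pools and 6.38, 6.48 and 6.51 in control pools (difference -0.26, adjusted p = 0.292). It did not overlap from either source of LKO pool 3, and the difference was -0.14 without that pool. Cyp2c29 read 7.53, 7.43 and 7.22 in LKO pools and 7.26, 7.37 and 7.36 in control pools (difference 0.06, adjusted p = 0.772). Cyp2c55, a target of CAR and PXR in mice, read 0.74, 0.64 and -1.79 in LKO pools and -0.34, 0.22 and 0.57 in control pools. LKO pools 1 and 2 were above every control and LKO pool 3 was below every control. The difference was therefore -0.29 (adjusted p = 0.839) from the scanner files, 0.65 (adjusted p = 0.154) with the value table and 0.54 (adjusted p = 0.24) without the pool. Cyp2c66 was well above background on 4 of 6 arrays and was not tested.

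The Cyp2d probes were mostly lower by small amounts. Of 9 tested probes 8 were lower in LKO livers and 1 was higher, with a median of -0.18, and none passed the test. In 5 probes every LKO pool was below every control pool, against 13.9% of all tested probes. Among the 5 were both Cyp2d9 probes, which share 27 bases. From the value table the groups did not overlap in 3 of the 9 probes, against 34.1% of all tested probes. The value table gave the same counts of direction and a median of -0.18, and leaving out LKO pool 3 a median of -0.26.

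Cyp2d9, a testosterone hydroxylase that marks male mouse liver, was read by 2 overlapping probes, which do not stand for independent measurements. Probe A_51_P478303 read 7.96, 8.02 and 8.02 in LKO pools and 8.28, 8.17 and 8.27 in control pools, with no overlap. The difference was -0.24 ± 0.09 (SE, adjusted p = 0.188), so the level in LKO livers was 0.844 of that in controls. Probe A_51_P124133 read 8.02, 8.05 and 7.999 in LKO pools and 8.18, 8.16 and 8.24 in control pools (difference -0.18, adjusted p = 0.287). In the value table LKO pool 3 was at 8.20 for both probes, within the controls, and the differences were -0.18 and -0.11.

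Cyp2d10 was also read by 2 probes. Probe A_52_P527775 read 5.44, 5.50 and 5.62 in LKO pools and 5.74, 5.83 and 5.92 in control pools. The groups did not overlap from either source of LKO pool 3. The difference was -0.31 ± 0.10 (SE, adjusted p = 0.163), and -0.36 (adjusted p = 0.0809) without LKO pool 3. Probe A_51_P111192 read 7.57, 7.72 and 7.64 in LKO pools and 7.73, 7.85 and 7.91 in control pools (difference -0.19, adjusted p = 0.319).

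The 3 probes of Cyp2d22 differed in sign. Probe A_51_P124126 read 5.25, 5.29 and 5.60 in LKO pools and 5.51, 5.71 and 5.72 in control pools (difference -0.27, adjusted p = 0.29). Probe A_52_P49391 read 1.39, 1.60 and 2.38 in LKO pools and 1.86, 1.94 and 2.05 in control pools (difference -0.16, adjusted p = 0.745). Probe A_52_P478420 read -1.38, -1.60 and -0.14 in LKO pools and -1.68, -1.39 and -1.94 in control pools (difference 0.63, adjusted p = 0.385). LKO pool 3 was the highest LKO pool in all 3 probes, and by a wide margin in the last. Without that pool the differences were -0.37, -0.46 and 0.18 in the same order, and from the value table -0.34, -0.34 and 0.31. Cyp2d26 differed by -0.11 and Cyp2d13 by -0.15, with adjusted p of 0.497 and 0.621 (-0.07 and -0.25 from the value table), and their probes share a run of 16 bases.

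**Figure D3:**
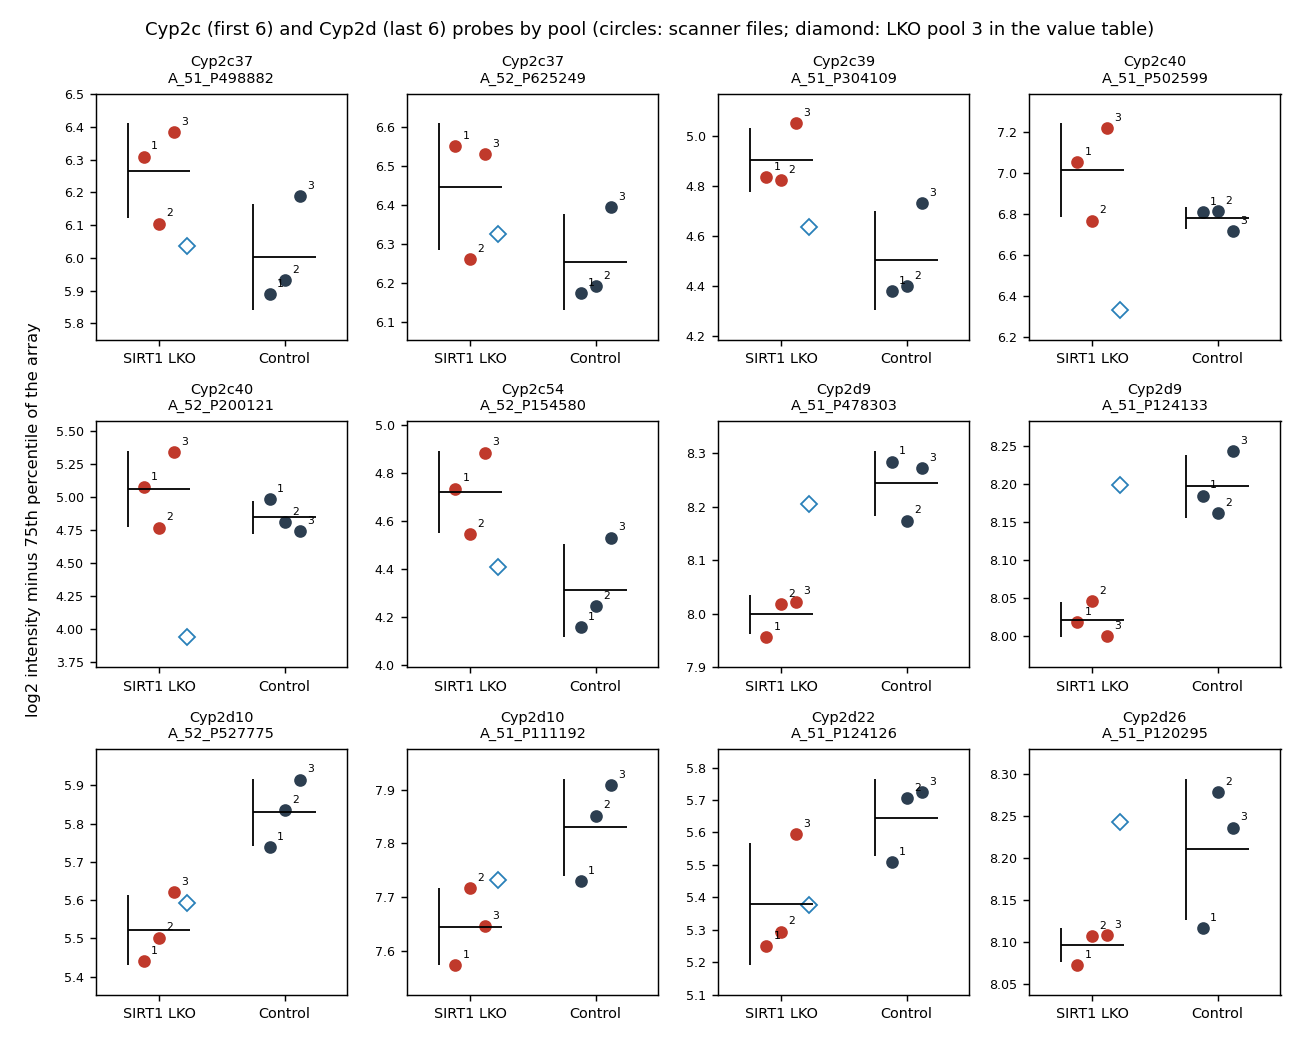
Level of 6 Cyp2c probes (first 6 panels) and 6 Cyp2d probes (last 6 panels) in each pool (log2 intensity minus the 75th percentile of the array, vertical axis, own scale in each panel), SIRT1 LKO at left and control at right. Numbered circles are pools in the scanner files, horizontal lines are means, vertical lines show 1 SD on either side, and diamonds show LKO pool 3 in the value table. The Cyp2c40 diamonds, at 6.33 and 3.94, are below every circle of their panels.

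The Cyp2a enzymes act on steroids, bile acids and coumarin. Of 5 tested probes 3 were higher and 2 lower, with a median of 0.02, and none passed the test. Cyp2a5, the coumarin hydroxylase of mouse liver, was read by 2 probes. Probe A_52_P246255 read 8.26, 8.18 and 7.97 in LKO pools and 7.84, 7.75 and 7.83 in control pools. All LKO pools were above all control pools, from either source of LKO pool 3, and the difference was 0.34 ± 0.11 (SE), with LKO livers at 1.26 times the level of controls (adjusted p = 0.162). It was 0.41 (adjusted p = 0.0604) in the value table, and 0.42 without LKO pool 3 (adjusted p = 0.0577), the lowest adjusted p of any member in those 2 settings.

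The second Cyp2a5 probe did not share this pattern. Probe A_52_P246252 read 8.04, 8.08 and 7.78 in LKO pools and 7.77, 8.04 and 8.10 in control pools, a difference of -0.01 (adjusted p = 0.986). It overlaps by 38 positions, and A_52_P246255 by 20 positions, with a probe named Cyp2a4 in the files. Whether each of these probes reads only the gene it is named for was not tested. That Cyp2a4 probe, A_51_P377154, read 7.14, 7.19 and 6.75 in LKO pools and 6.90, 6.96 and 7.0005 in control pools (difference 0.07, adjusted p = 0.795). The other Cyp2a4 probe, A_52_P9703, read 7.19, 7.02 and 6.94 in LKO pools and 7.14, 6.94 and 7.02 in control pools (difference 0.02, adjusted p = 0.946). Cyp2a12, a bile acid hydroxylase in mice, read 5.95, 5.93 and 5.85 in LKO pools and 6.18, 6.13 and 5.94 in control pools (difference -0.17, adjusted p = 0.37).

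The Cyp1 genes, the classic targets of Ahr, gave no call. Cyp1a1, which oxidises polycyclic aromatic hydrocarbons, read -1.85, -2.05 and -2.80 in LKO pools and -2.96, -2.24 and -2.32 in control pools. The groups overlapped, and the difference was 0.27 ± 0.30 (SE, adjusted p = 0.633). With the value table, which put LKO pool 3 at -2.07, all LKO pools were above all controls and the difference was 0.52 (adjusted p = 0.172). Cyp1a2, the constitutive hepatic member, read 5.99, 5.98 and 5.91 in LKO pools and 6.09, 5.88 and 6.02 in control pools with probe A_52_P595871 (difference -0.04, adjusted p = 0.843). With probe A_51_P450140 it read 5.19, 5.16 and 5.17 in LKO pools and 5.42, 5.16 and 5.44 in control pools (difference -0.17, adjusted p = 0.411). Neither Cyp1b1 probe was tested, each being well above background on 1 of 6 arrays.

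The Cyp3a enzymes, which PXR controls, gave no call. Of 7 tested probes 1 was higher and 6 were lower, with a median of -0.05. The value table gave 3 higher and 4 lower, with a median of -0.03. Cyp3a11, the main hepatic Cyp3a of mice, read 7.58, 7.52 and 6.96 in LKO pools and 7.30, 7.51 and 7.39 in control pools. Only LKO pool 3 stood low, and the difference was -0.05 ± 0.18 (SE, adjusted p = 0.897), or 0.12 (adjusted p = 0.431) with the value table. Cyp3a13 read 4.90, 4.76 and 5.29 in LKO pools and 4.71, 4.996 and 5.07 in control pools (difference 0.06, adjusted p = 0.874).

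Cyp3a16, known as a fetal and newborn form in mice, read 6.15, 5.91 and 5.37 in LKO pools and 5.87, 6.06 and 6.00 in control pools (difference -0.17, adjusted p = 0.668). Cyp3a41 and Cyp3a44 are female-biased in adult mice. Cyp3a41 read 7.75, 7.54 and 7.20 in LKO pools and 7.54, 7.80 and 7.88 in control pools (difference -0.24, adjusted p = 0.444). Its difference was -0.07 from the value table and -0.09 without LKO pool 3. Cyp3a44 read 6.76, 6.51 and 6.06 in LKO pools and 6.26, 6.56 and 6.51 in control pools (difference 0.00, adjusted p = 0.995). In Cyp3a11, Cyp3a16, Cyp3a41 and Cyp3a44 LKO pool 3 was the lowest of the 6 pools. The Cyp3a41 and Cyp3a44 probes lie within 263 bases of each other on chromosome 5, and whether each reads only its own gene was not tested.

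Cyp3a25 had 2 probes in which LKO pool 3 was the highest pool instead. Probe A_51_P489367 read 6.06, 5.90 and 6.58 in LKO pools and 6.18, 6.29 and 6.17 in control pools (difference -0.04, adjusted p = 0.928). Probe A_52_P380314 read 3.54, 3.54 and 4.16 in LKO pools and 3.96, 3.94 and 3.74 in control pools (difference -0.13, adjusted p = 0.719). With the value table the second probe did not overlap between the groups and differed by -0.34 (adjusted p = 0.0896).

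The epoxygenases of the Cyp2j cluster also gave no call, with 3 of 7 tested probes higher, 4 lower and a median of -0.04. The balance was 5 higher and 2 lower from the value table, and 4 higher and 3 lower without LKO pool 3, each with a median of 0.07. Cyp2j5, the form of liver and kidney, read 6.69, 6.56 and 6.16 in LKO pools and 6.37, 6.43 and 6.42 in control pools with probe A_52_P315766 (difference 0.07, adjusted p = 0.831). Its other probe differed by 0.07 as well, with readings of 6.05, 5.93 and 5.66 in LKO pools and 5.63, 5.92 and 5.88 in control pools. Cyp2j6 read 2.76, 2.54 and 2.52 in LKO pools and 2.88, 2.89 and 2.73 in control pools (difference -0.23, adjusted p = 0.285). Cyp2j9 overlapped in the scanner files, with a difference of -0.09, but with the value table all LKO pools were below all controls and the difference was -0.44 (adjusted p = 0.0881). Cyp2j11 and Cyp2j13 probes share a run of 18 bases, and their tested probes differed by between -0.35 and 0.21. The -0.35 came from Cyp2j11 probe A_52_P121800, which was well above background on all 3 LKO arrays and on 1 control array. Control pool 1 stood high for that probe, at -3.38 against -5.24 and -5.17 in control pools 2 and 3. From the value table its difference was 0.07.

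Subfamilies with a single tested probe overlapped between the groups throughout. Cyp2e1, which oxidises ethanol and paracetamol in the hepatocytes around the central vein, read 7.66, 7.64 and 7.44 in LKO pools and 7.52, 7.53 and 7.74 in control pools. Its difference was -0.01 (95% interval -0.29 to 0.26, adjusted p = 0.963). Cyp2f2, an enzyme of periportal hepatocytes that activates naphthalene, read 7.90, 7.96 and 7.44 in LKO pools and 7.96, 8.03 and 7.94 in control pools (difference -0.21, adjusted p = 0.462). LKO pool 3 alone stood low, and with the value table the difference was 0.03. Lung club cells, the other main site of Cyp2f2, gave no tested marker, with 0 of 3 passing the filter.

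Cyp2r1, a vitamin D hydroxylase, read 1.45, 1.25 and 1.14 in LKO pools and 1.23, 1.26 and 1.43 in control pools (difference -0.03, adjusted p = 0.912). Cyp2u1, a fatty acid hydroxylase, read 0.34, 0.68 and -0.51 in LKO pools and 0.78, 0.73 and 0.41 in control pools (difference -0.47, adjusted p = 0.405). Without LKO pool 3 its difference was -0.13. Cyp2g1, an enzyme of olfactory tissue, differed by 0.15 and Cyp2s1 by 0.28, with adjusted p of 0.792 and 0.44. Both were near zero from the value table (0.02 and 0.03), and they were -0.02 and 0.12 without LKO pool 3.

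The 2 deposited sources of LKO pool 3 disagreed for some of these P450 genes. After each source was scaled to its own 75th percentile, the pool differed by more than 1 on the log2 scale in 10 of 56 tested member probes, against 6.28% of all tested probes. The 10 were the 2 Cyp2b10 probes, the tested Cyp2b13 probe, both Cyp2c38 probes, 1 Cyp2c40 probe and the probes of Cyp2c55, Cyp2c70 and Cyp2j9 and 1 of Cyp2j11. The value table was higher for Cyp2b10 (by 2.19 and 3.06), Cyp2b13 (1.38), Cyp2c55 (2.80), Cyp2c70 (1.02) and Cyp2j11 (1.23). It was lower for Cyp2c38 (differences of -2.40 and -2.43), Cyp2c40 (-1.41) and Cyp2j9 (-1.06).

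**Figure D4:**
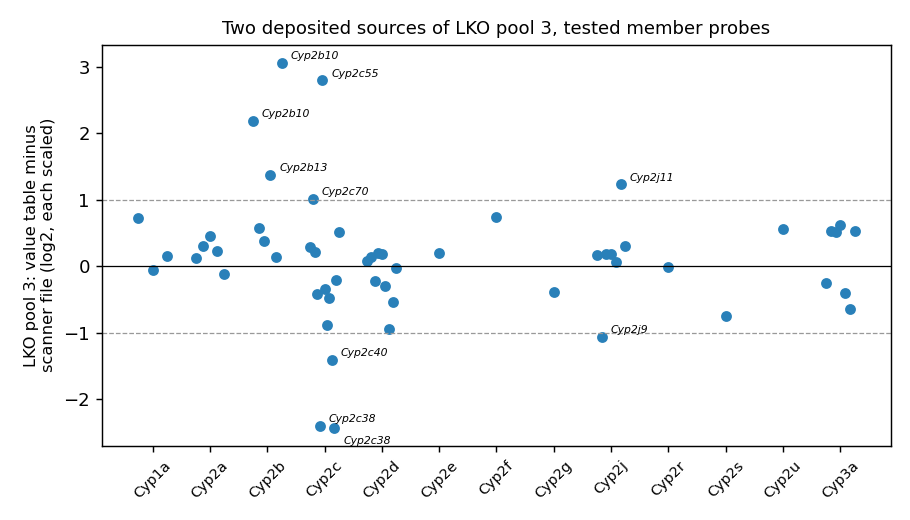
Value table minus scanner file for LKO pool 3 (log2, each source scaled to its own 75th percentile, vertical axis) for the 56 tested member probes, 1 point per probe, by subfamily (horizontal axis). Dashed lines mark 1 and -1, and probes beyond them carry their gene name. The widest gaps are 3.06 for a Cyp2b10 probe and -2.43 for a Cyp2c38 probe.

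The receptors and partners that govern these genes gave 0 calls among 11 tested genes, 6 higher and 5 lower, with a median of 0.00. Arnt, the partner of Ahr, averaged 0.80 ± 0.18 in LKO pools and 0.21 ± 0.11 in control pools (SD, n = 3 each), a difference of 0.58 without overlap of the groups (adjusted p = 0.097). Ahr itself averaged 2.13 ± 0.33 in LKO pools and 2.73 ± 0.28 in control pools, a difference of -0.59 without overlap (adjusted p = 0.186). Rxrb, a partner of CAR and PXR, averaged 2.22 ± 0.10 in LKO pools and 2.61 ± 0.04 in control pools (adjusted p = 0.113). The 16 listed targets of CAR and PXR were higher in 8 cases and lower in 8, with a median of 0.02 and 0 calls. Among the 16 are the members Cyp2b10, Cyp2c29, Cyp2c37, Cyp2c55, Cyp3a11, Cyp3a13 and Cyp3a25. Of 5 tested Ahr targets, the members Cyp1a1 and Cyp1a2 among them, 3 were higher and 2 lower, and none passed the test. The 12 hepatocyte factors that act on Cyp genes, such as Hnf4a and Cebpa, were higher in 8 cases and lower in 4, with a median of 0.02 and 0 calls. Without LKO pool 3 Cebpb alone of the 12 passed, with a difference of 0.64 (adjusted p = 0.049), in a setting where 2.96% of all tested probes passed. With all 6 arrays its groups overlapped and its difference was 0.37 (adjusted p = 0.383).

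Por, which supplies the electrons, averaged 7.52 ± 0.025 in LKO pools and 7.21 ± 0.19 in control pools, a difference of 0.31 (adjusted p = 0.206). Of the 8 genes for electron donors and haem supply 5 were higher and 3 lower, and none passed. Among 17 phase I enzymes outside the P450 families 7 were higher and 10 lower, and none passed. Adh4 had the lowest p of these, with 5.28 ± 0.11 in LKO pools and 5.72 ± 0.12 in control pools (adjusted p = 0.12).

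For the sex-biased genes of mouse liver, 9 of 10 male-biased genes were lower in LKO livers, with a median of -0.31, and 0 passed the test. The list includes the members Cyp2d9 and Cyp2u1. Hsd3b5, a steroid dehydrogenase of male liver, averaged 5.01 ± 0.42 in LKO pools and 5.72 ± 0.24 in control pools (SD, n = 3 each, adjusted p = 0.164). Cyp7b1, an oxysterol hydroxylase, averaged 6.15 ± 0.29 in LKO pools and 6.69 ± 0.29 in control pools (adjusted p = 0.203). The median of the list was -0.23 in the value table, and -0.13 when LKO pool 3 was left out. Of 10 tested female-biased genes, 8 of them Cyp2 or Cyp3 members, 5 were higher and 5 lower, with a median of 0.01. Cux2, a transcription factor of female mouse liver, had the lowest p of the list, with no overlap of the groups and an adjusted p of 0.0777 (0.162 from the value table), past no threshold. Cux2 was not well above background on any control array and entered the test through the LKO arrays alone. Its p and its lack of overlap therefore lend no support to a difference. The mean of the LKO pools was 2.66-fold the dimmest signal well above background on the control arrays. That ratio leaves out the spread of the LKO pools (SD 0.70). Next by p among the female-biased genes were Cyp2b13 and Cyp2b9, both lower in LKO livers. Their differences were -1.73 (adjusted p = 0.124) and -0.93 (adjusted p = 0.346). In the growth hormone and STAT5 pathway, which sets these sex differences, 6 of 8 genes were higher and 2 lower, and none passed the test.

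Markers of zones and of other cells were read beside these values. Over the 8 hepatocyte markers 5 were higher and 3 lower, with a median of 0.04. The log2 of their mean intensity lay between 7.81 and 8.18 in LKO pools and between 7.83 and 8.07 in control pools. Among 11 tested pericentral markers 5 were higher and 6 lower, with the lowest p for Axin2 (difference 0.86, adjusted p = 0.0796), and among 11 periportal markers 6 were higher and 5 lower. The pericentral list holds the members Cyp1a2 and Cyp2e1, and the periportal list the member Cyp2f2. These lists are therefore not separate from the P450 values. Kupffer cell markers were lower in 9 of 10 genes, with a median of -0.19 from the scanner files and 0.20 with the value table. Of 6 cholangiocyte markers 5 were higher and 1 lower, Sox9, with a difference of -1.12 (adjusted p = 0.065, or 0.289 from the value table and 0.047 without LKO pool 3). Without that pool 2.96% of all tested probes passed. None of these markers passed the test with all 6 arrays of the scanner files, and their part in the P450 values was not tested.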

How the data were processed

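The deposited scanner files hold spot intensity, written according to the submitters' processing notes by version 9.5 of Agilent Feature Extraction, and the processed intensity used here was background-subtracted and detrended, per the file headers. Other deposited flags mark spots well above background, saturated or outlying. The deposited value table holds 1 intensity per probe, made with the Rosetta Resolver error model, per the labels. In 5 samples it was within 1% of the scanner files for 99.8% of probes. Outlier spots were set missing, spots of a probe averaged after log2, and the 75th percentile of the array was subtracted.

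The difference between LKO and control pools came from limma 3.58.1 in R 4.3.3 (lmFit and eBayes, genotype only, two-sided, Benjamini-Hochberg over 23588 probes), and the steps were tested on simulated data. Pools came from separate animals, 2 per pool. Groups came from the sample titles. RefSeq accessions (GRCm38.p6 table) matched 22951 of 41174 probes and 57 of 66 members.

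The members and lists were chosen with earlier results of these data known. Probes named by a set rule were the 20 members with the lowest p, the brightest tested probe of each of 23 set genes, and other probes of those genes. Values are also given for Cyp2b19, Cyp2c38, Cyp2d13, Cyp2d26, Cyp2g1, Cyp2j9, Cyp2j11, Cyp2j13 and Cyp2s1, which that rule did not take. Context genes given with values were among the 3 with the lowest p of a list. Figures used matplotlib 3.10.9. The number of arrays limits the precision.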

Additional observations from a re-analysis of the deposited data

How the results depend on the processing

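In all 18 alternatives 0 member probes passed the limma threshold and the member median stayed between -0.11 and -0.04. The number of probes called over the whole array, 15, moved with the processing. It was 0 with normexp background correction, 0 without a filter on dim probes and 49 with probes well above background on all 6 arrays. It was 24 with 1 probe per gene, 0 with the slide as a random block (correlation 0.312), 91 with an intensity trend and robust variance, and 308 with the value table for every sample or for LKO pool 3 alone. Leaving out 1 replicate gave between 0 and 699 calls, with 699 without LKO pool 3 and 0 without any other. The cause was not tested.

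With the replicate number as a replicate block 0 probes and 0 members were called. Same-numbered samples correlated at 0.0096, -0.043 and -0.093 in their deviations from the group means, and differently numbered samples at between -0.080 and 0.129. These values show no pairing by number. With 3 pools per group they cannot decide whether the numbers pair the samples.

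The 45 probes named by the set rule gave 796 comparisons with their alternatives, of which 737 kept their direction and none passed the threshold. Probes given with values outside that rule, such as those of Cyp2c38 and Cyp2g1, are not in these counts. In 59 the direction turned, and 24 probes never turned. With normexp the difference was -0.0073 for Cyp2c29, -0.0755 for Cyp2j5 (A_51_P307872), -0.0301 for Cyp2c37 (A_52_P625249), 0.080 for Cyp2c65 and -0.022 for Cyp2a4 (A_52_P9703), which was -0.0207 with quantile normalization. With the slide block it was 0.0015 for Cyp3a25 (A_51_P489367). With the value table, for all samples or for LKO pool 3 alone, it was -0.026 for Cyp3a13, 0.056 for Cyp2e1, 0.12 for Cyp3a11, 0.65 for Cyp2c55, 0.034 for Cyp2f2 and 0.039 for Cyp3a16. It was -0.061 and -0.25 for Cyp2c40, 0.15 for Cyp2a5 (A_52_P246252), 0.18 for Cyp3a44, 0.011 for Cyp1a2 (A_52_P595871) and -0.020 for Cyp2a4 (A_52_P9703).

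Leaving out each replicate gave ranges that crossed zero, from -0.0026 to 0.15 for Cyp2c29, -0.015 to 0.19 and -0.043 to 0.22 for the Cyp2j5 probes, and -0.052 to 0.072 and -0.011 to 0.21 for the Cyp2a4 probes. They were -0.24 to 0.10 for Cyp3a25, -0.096 to 0.17 for Cyp3a13, -0.054 to 0.060 for Cyp2e1, -0.16 to 0.15 for Cyp3a11 and -0.72 to 0.54 for Cyp2c55. For Cyp3a16 they were -0.34 to 0.053, for Cyp2a5 -0.10 to 0.090, for Cyp3a44 -0.16 to 0.19, for Cyp1a2 -0.099 to 0.0081, for Cyp2d22 -0.46 to 0.038 and for Cyp2r1 -0.12 to 0.041.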
